A study of Homo sapiens with 3 samples.

Results

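Dual-specificity phosphatases (DUSP), Sprouty (SPRY) and Spred (SPRED) proteins switch off mitogen-activated protein kinase (MAPK) signalling, and 10 of their genes were examined for binding of the AP-1 proteins Fra-1 and Fra-2. The genes are DUSP1, DUSP4, DUSP5, DUSP6, DUSP10, SPRY1, SPRY2, SPRY4, SPRED1 and SPRED2. A peak was counted for a gene when its centre lay in the gene body or within 100 kb of a transcription start site (TSS) of one of its protein-coding transcripts, which is called in reach below. This rule took 35 peaks from the 9998 of the Fra-1 list and 40 from the 13003 of the Fra-2 list, and no peak was in reach of more than 1 of the genes. Chromatin immunoprecipitation and sequencing (ChIP-seq) had been done in MDA-MB-231, a human cell line from a triple-negative (basal B) breast tumour, grown at 37°C in medium with 10% serum, with no treatment named in the labels. The groups are a Fra-1 precipitate, a Fra-2 precipitate and input DNA of the same line, and the labels state 2 independent replicates of each. A single peak list per antibody was analysed, the input was not analysed here, so the values below carry neither a replicate error nor a test. Expression was not measured in the files used here, so a peak near a gene is a position and not an effect on that gene.

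In the MAPK cascade, receptors activate RAS, and RAS activates RAF kinases. Through a further kinase these activate ERK, which enters the nucleus and phosphorylates transcription factors. Sprouty and Spred proteins act upstream, at the level of RAS and RAF. The phosphatases act at the end, by removing phosphate from ERK and from the related stress kinases JNK and p38. Many of these inhibitors are themselves induced by ERK, which makes a negative feedback loop. Fra-1, encoded by FOSL1, is also made and stabilised under ERK signalling, and MDA-MB-231 is known as a line with an activated RAS pathway.

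The sequences below are peaks that carry the main findings: the widest shared peak with an AP-1 element, or the peak at a TSS, of each gene where one could be shown, plus 3 peaks added after the values were seen. They were read from the plus strand of GRCh37, the assembly behind hg19, 5′ to 3′, and capitals mark the AP-1 element. On the strand shown it reads TGACTCA or TGAGTCA, which are the reverse complements of each other.
DUSP1, Fra-1 peak, chr5:172204451-172204700: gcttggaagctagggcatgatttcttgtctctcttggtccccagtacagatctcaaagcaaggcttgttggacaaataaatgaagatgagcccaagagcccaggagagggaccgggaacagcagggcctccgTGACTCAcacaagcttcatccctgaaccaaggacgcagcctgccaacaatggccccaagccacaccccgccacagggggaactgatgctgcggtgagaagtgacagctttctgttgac
DUSP1, Fra-1 peak, chr5:172199451-172199600: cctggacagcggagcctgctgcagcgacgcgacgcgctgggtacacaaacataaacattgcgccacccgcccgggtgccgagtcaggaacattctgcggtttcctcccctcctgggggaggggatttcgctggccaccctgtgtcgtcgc
DUSP5, Fra-1 peak, chr10:112170201-112170500: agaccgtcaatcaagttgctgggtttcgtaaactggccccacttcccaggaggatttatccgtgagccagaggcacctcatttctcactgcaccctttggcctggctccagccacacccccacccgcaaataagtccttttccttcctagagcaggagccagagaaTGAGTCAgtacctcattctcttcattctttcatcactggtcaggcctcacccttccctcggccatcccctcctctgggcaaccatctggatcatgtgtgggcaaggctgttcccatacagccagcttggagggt
DUSP5, Fra-1 peak, chr10:112261151-112261300: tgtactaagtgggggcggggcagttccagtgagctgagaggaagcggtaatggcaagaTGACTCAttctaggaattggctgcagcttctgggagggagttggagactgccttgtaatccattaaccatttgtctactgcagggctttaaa
DUSP10, Fra-1 peak, chr1:222013151-222013450: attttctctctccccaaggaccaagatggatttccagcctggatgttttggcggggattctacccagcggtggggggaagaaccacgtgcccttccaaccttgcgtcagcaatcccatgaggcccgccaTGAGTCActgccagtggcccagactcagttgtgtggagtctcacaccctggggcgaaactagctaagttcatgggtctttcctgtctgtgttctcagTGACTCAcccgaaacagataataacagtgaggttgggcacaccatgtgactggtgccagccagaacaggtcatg
SPRY1, Fra-1 peak, chr4:124261551-124261700: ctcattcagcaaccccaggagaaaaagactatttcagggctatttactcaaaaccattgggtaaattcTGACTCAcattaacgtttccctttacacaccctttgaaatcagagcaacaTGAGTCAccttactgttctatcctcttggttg
SPRY4, Fra-1 peak, chr5:141742401-141742600: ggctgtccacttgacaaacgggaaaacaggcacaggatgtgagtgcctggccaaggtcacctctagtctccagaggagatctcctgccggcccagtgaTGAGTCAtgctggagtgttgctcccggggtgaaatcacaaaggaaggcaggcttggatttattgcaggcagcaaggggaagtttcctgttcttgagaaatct
SPRED2, Fra-1 peak, chr2:65593801-65594000: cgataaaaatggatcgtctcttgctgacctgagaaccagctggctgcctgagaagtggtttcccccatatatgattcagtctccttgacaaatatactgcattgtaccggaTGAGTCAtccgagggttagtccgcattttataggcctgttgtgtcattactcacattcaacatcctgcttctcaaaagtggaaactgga
SPRED2, Fra-2 peak, chr2:65604901-65605100: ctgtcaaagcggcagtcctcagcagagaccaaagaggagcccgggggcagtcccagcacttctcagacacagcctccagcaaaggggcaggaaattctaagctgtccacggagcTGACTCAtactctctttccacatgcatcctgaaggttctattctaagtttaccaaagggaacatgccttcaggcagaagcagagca

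Most of the genes had peaks of both proteins in reach, and the phosphatase genes DUSP5 and DUSP1 together held 17 Fra-1 and 26 Fra-2 peaks. A Fra-1 peak was in reach of 7 of the 10 genes, where 43.9% of 19748 protein-coding genes had one. A Fra-2 peak was in reach of 8 of the 10 genes, where 57.1% of all genes had one. The same 7 genes had both kinds, as did 41.2% of all genes, and none had Fra-1 without Fra-2, a state found in 2.71%. DUSP4 had Fra-2 without Fra-1, which 15.8% of all genes showed. SPRY2 and SPRED1 had no peak of either list in reach, like 40.2% of all genes. The median over the 10 genes was 3.5 Fra-1 and 2.5 Fra-2 peaks, against 0 and 1 over all genes. With the reach cut to the gene body or 10 kb from a TSS, Fra-1 peaks were in reach of 3 genes and Fra-2 peaks of 4. The shares of all genes were then 16.0% and 22.8%. Among peaks at least 200 bp wide, the counts were 7 and 8 genes, against 27.2% and 38.2% of all genes. With 10 genes these figures describe the genes and do not test them as a group.

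**Figure D1:**
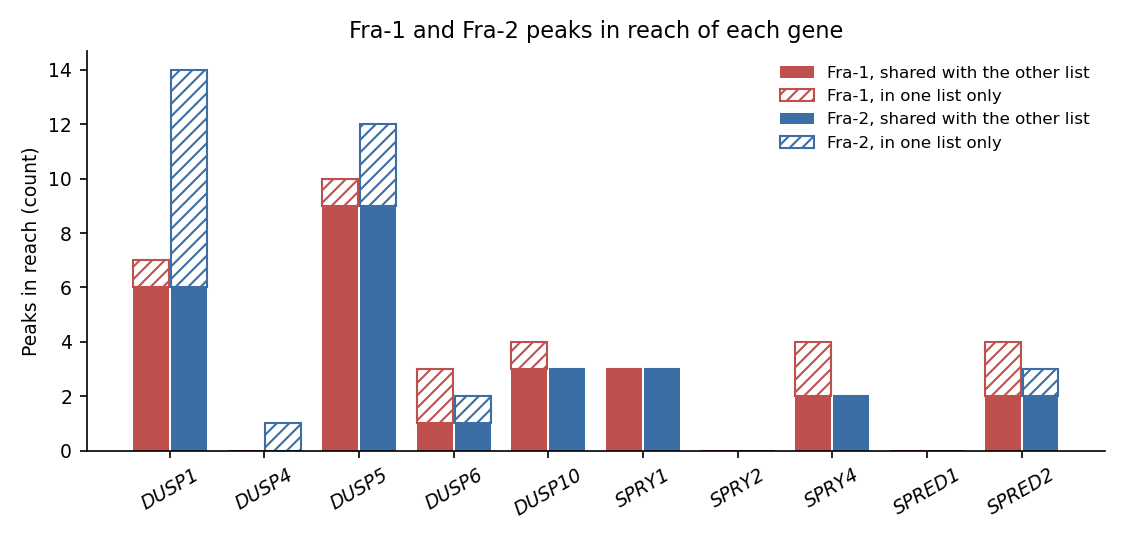
Number of Fra-1 peaks (red, left) and Fra-2 peaks (blue, right) in reach of each gene, with filled bars for peaks that share at least 1 bp with the other list and hatched bars for those that do not. DUSP5 has 10 Fra-1 and 12 Fra-2 peaks and DUSP1 has 7 and 14, while SPRY2 and SPRED1 have none.

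The 75 peaks fell on 49 distinct sites. Both proteins were found at 26 of them, Fra-1 alone at 9 and Fra-2 alone at 14. A partner was thus found for 74.3% (Fra-1) and 65.0% (Fra-2), against 80.4% and 61.6% over the whole lists. Within 1 kb of a TSS lay 1 Fra-1 and 2 Fra-2 peaks (2.86% and 5.0%), and all 3 were at SPRED2. The shares were 4.05% and 5.72% in the whole lists and 5.52% and 7.57% among peaks in reach of any protein-coding gene. The median distance to the nearest TSS of the gene was 37.9 kb for Fra-1 and 38.1 kb for Fra-2 peaks. Upstream of that TSS lay 25 Fra-1 peaks (71.4%) and 29 Fra-2 peaks (72.5%), against 49.6% and 49.9% of gene and peak pairs over all protein-coding genes. Upstream peaks near a gene are not independent, since DUSP1 and DUSP5 together supplied 17 of the Fra-1 and 26 of the Fra-2 peaks. No peak centre lay in a coding exon or a UTR. Introns of protein-coding genes held 7 Fra-1 and 8 Fra-2 peaks, long non-coding RNA (lncRNA) genes 12 and 13, and intergenic sequence 16 and 19. Neither these locations nor the median distances above were set against all peaks.

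**Figure D2:**
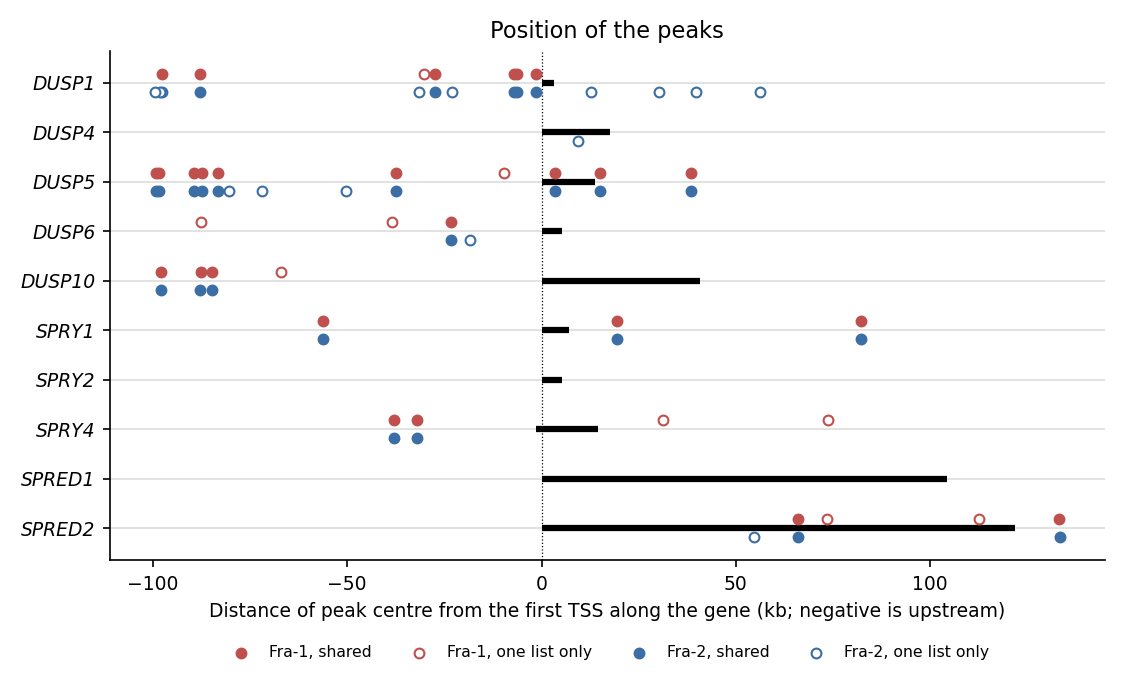
Position of each peak centre relative to the first TSS of its gene, in kb along the direction of transcription, with Fra-1 in red above and Fra-2 in blue below each line, filled where shared and open where found in a single list. Black bars are the gene bodies. The peaks of DUSP10 lie 67.0 to 97.9 kb upstream, and those of SPRED2 lie inside or beyond the gene.

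DUSP1 encodes a nuclear phosphatase, induced by growth factors and stress, that acts on p38, JNK and ERK. The gene lies on chromosome 5 from 172195099 to 172198198 on the minus strand (hg19, as are all coordinates here). It had 7 Fra-1 and 14 Fra-2 peaks. At least as many Fra-1 peaks were in reach of 139 protein-coding genes (0.704%), and at least as many Fra-2 peaks in reach of 24 (0.122%). Both proteins occupied a site 1.33 kb upstream of the TSS, where the Fra-1 peak ran from 172199451 to 172199601 and the Fra-2 peak from 172199401 to the same end. This site, the second sequence above, had no AP-1 element within 100 bp of its centre in either list, and the Fra-1 window had a GC content of 64.7%. A pair of shared sites followed 6.38 and 7.18 kb upstream, from 172204451 to 172204701 and from 172205301 to 172205451 in the Fra-1 list, and both held the element. These 3 sites, within 6 kb of each other, lie in an lncRNA gene annotated upstream of DUSP1.

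The Fra-2 list was the longer at DUSP1. Fra-2 was found without Fra-1 at 8 sites and Fra-1 without Fra-2 at 1. Peaks of a single list were more often Fra-2 peaks over the whole genome too, with 4988 of 13003 Fra-2 peaks and 1959 of 9998 Fra-1 peaks lacking a partner. All 4 peaks downstream of the TSS, 12.8 to 56.1 kb away, were Fra-2 peaks with no Fra-1 partner. Of the 8 Fra-2-only peaks, 5 held the AP-1 element, as did 77.1% of all peaks found only in the Fra-2 list. The widest of them, 350 bp from 172229601 to 172229951, was 31.6 kb upstream and held it 21 bp from the centre. The peak 56.1 kb downstream had no AP-1 element, and it was the only peak of the 10 genes with a cyclic AMP response element (TGACGTCA) within 100 bp of its centre, in this case outside the peak itself. This element was in 0.393% of all Fra-2 windows. The Fra-1-only peak, from 172228301 to 172228451, was 30.2 kb upstream and held a TEAD element (GGAATGC or GGAATGT) and no AP-1 element. The widest Fra-1 peak of all 10 genes, 550 bp from 172285751 to 172286301, was 87.8 kb upstream in an intron of ERGIC1, where the Fra-2 peak was 300 bp wide. It held no AP-1 element and lay nearer to a TSS of ERGIC1. DUSP1 had the nearest protein-coding TSS for 5 of its 7 Fra-1 and 9 of its 14 Fra-2 peaks.

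DUSP4, a nuclear phosphatase related to DUSP1, had few peaks. The gene lies on chromosome 8 from 29190581 to 29208201 on the minus strand. A single Fra-2 peak, from 29198801 to 29199051, was in reach. It lay in an intron 7.40 kb downstream of the nearest TSS, was 250 bp wide and held the AP-1 element 27 bp from its centre. The next peaks were 143 kb away, where both lists had the same interval, 29351301 to 29351551.

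DUSP5 encodes a nuclear phosphatase with high selectivity for ERK. The gene lies on chromosome 10 from 112257665 to 112271291 on the plus strand. It had 10 Fra-1 and 12 Fra-2 peaks, and 9 sites were shared. At least as many Fra-1 peaks were in reach of 34 genes (0.172%), and at least as many Fra-2 peaks in reach of 37 (0.187%). Neighbouring genes share peaks, so these counts of genes are not counts of separate regions. Inside the gene, both proteins occupied an intronic site 3.56 kb downstream of the TSS, where the Fra-1 peak ran from 112261151 to 112261301 and the Fra-2 peak from 112261051. Its AP-1 element lies 14 bp from the centre of the Fra-1 peak and is shown in the fourth sequence. Just past the 3′ end, a 250 bp peak from 112272651 to 112272901 had the same bounds in both lists and also held the element.

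The largest group of DUSP5 peaks was far upstream. Within 16.4 kb, from 112158351 to 112174801, lay 5 Fra-1 peaks, and within 19.1 kb, from 112158401 to 112177451, lay 6 Fra-2 peaks. The Fra-1 peaks were 300 to 500 bp wide and the Fra-2 peaks 250 to 500 bp. The 300 bp peaks at 112168101 and 112170201 had identical bounds in both lists and held the AP-1 element, 7 and 19 bp from their centres. The 500 bp peak from 112174301 to 112174801, also with identical bounds, held an element inside the peak but beyond 100 bp of its centre, and a TEAD element within 100 bp. The outermost pair of sites, 98.4 and 99.2 kb upstream, had none and lay nearer to SMNDC1. Between this group and the TSS, Fra-2 was found alone at 112185751 and 112207201, both with the element, and Fra-1 alone at 112248001, without it. The innermost peak of the Fra-2 group, at 112177201, was also without a Fra-1 partner and held the element. The last shared sites were 37.4 kb upstream in the lncRNA gene DUSP5-DT, with an AP-1 element within 100 bp of the centre but outside the peaks, and 38.4 kb downstream, with a RUNX element (TGTGGTT) and nearer to SMC3.

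DUSP6 encodes the cytoplasmic phosphatase specific for ERK, a widely used readout of ERK activity. The gene lies on chromosome 12 from 89741012 to 89746278 on the minus strand. It had 3 Fra-1 and 2 Fra-2 peaks, all upstream and none within 10 kb of a TSS. A single site was shared, 350 bp wide in both lists, 23.2 kb upstream in an lncRNA gene. An AP-1 element and an ETS element (CCGGAAG) both lay within 100 bp of its centre. Of all peaks, this ETS element was in 1.36% for Fra-1 and 1.38% for Fra-2, and no other peak of the 10 genes held it. Fra-1 was found alone 38.5 kb upstream, without an AP-1 element, and 87.6 kb upstream in an intron of POC1B, with one. Fra-2 was found alone 18.5 kb upstream from 89764701 to 89764901, without an AP-1 element and with a RUNX element.

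DUSP10, a phosphatase for p38 and JNK rather than ERK, had only remote peaks. The gene lies on chromosome 1 from 221874766 to 221915431 on the minus strand. Its 4 Fra-1 and 3 Fra-2 peaks were 67.0 to 97.9 kb upstream, and no other protein-coding gene had a TSS within 100 kb of its own. The 3 shared sites lay in the lncRNA gene LINC01655 within 13.3 kb of each other. Those at 222000201 and 222013151 each held 2 AP-1 elements, and in the sequence shown the elements of the site at 222013151 are 90 bases apart. The third, at 222003101 in the Fra-1 list, held none, with a Fra-1 peak of 100 bp and a Fra-2 peak of 250 bp. The Fra-1-only peak, 67.0 kb upstream from 221982401 to 221982551, held no AP-1 element. The group ends close to the limit of 100 kb, and the next peaks of both lists were 104 kb upstream.

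Among the Sprouty genes, SPRY1 and SPRY4 had peaks and SPRY2 had none. Sprouty proteins bind adaptors and RAF and dampen signalling from receptor tyrosine kinases. SPRY1, on the plus strand of chromosome 4 from 124317950 to 124324915, had 3 peaks of each list at the same 3 sites. The site 56.3 kb upstream, from 124261551 to 124261701 in the Fra-1 list, held 2 AP-1 elements 43 bases apart. The other sites lay 16.2 and 79.0 kb downstream, without an AP-1 element, and the farther held a RUNX element.

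SPRY4, on the minus strand of chromosome 5 from 141689992 to 141706020, had 4 Fra-1 and 2 Fra-2 peaks. Both shared sites lay upstream in the lncRNA gene SPRY4-AS1. The one 37.9 kb away, from 141742401 to 141742601 in the Fra-1 list, had its AP-1 element 1 bp from the centre. At the one 32.0 kb away, the Fra-1 peak was 300 bp wide, from 141736451 to 141736751, and the Fra-2 peak 100 bp wide, and a RUNX element but no AP-1 element was found. The Fra-1-only peaks, 30.5 and 72.8 kb downstream, had none of the 6 elements sought. SPRY2 (chromosome 13, 80910111 to 80915261, minus strand) had its nearest peaks 129 kb away, with starts at 81044051 for Fra-1 and 81044001 for Fra-2.

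The Spred genes encode relatives of Sprouty that block activation of RAF and recruit the RAS inhibitor neurofibromin. SPRED2 (chromosome 2, 65537985 to 65659771, minus strand) was the only gene of the 10 with peaks within 1 kb of a TSS, which 1.84% of all genes had for Fra-1 and 3.62% for Fra-2. A Fra-1 peak from 65593801 to 65594001 and a Fra-2 peak from 65593751 to 65594101 overlapped there, centred 0.117 and 0.142 kb upstream of a TSS at 65593784. A Fra-2 peak with no Fra-1 partner ran from 65604901 to 65605101, centred 0.117 kb upstream of a TSS at 65604884. Both of these starts belong to transcripts that GENCODE does not mark as canonical and lie inside the gene, where the sites are 65.9 and 54.8 kb downstream of the first TSS. Both sites held the AP-1 element, as their sequences show. A further shared site, 35.3 kb downstream of the nearest TSS in the Fra-1 list and past the end of the gene, held it as well. The Fra-1-only peaks, 100 bp wide in introns at 65547151 and 65586251, did not. SPRED1 (chromosome 15, 38545037 to 38649450, plus strand) had its nearest Fra-2 peak at 123 kb and its nearest Fra-1 peak at 463 kb.

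**Figure D3:**
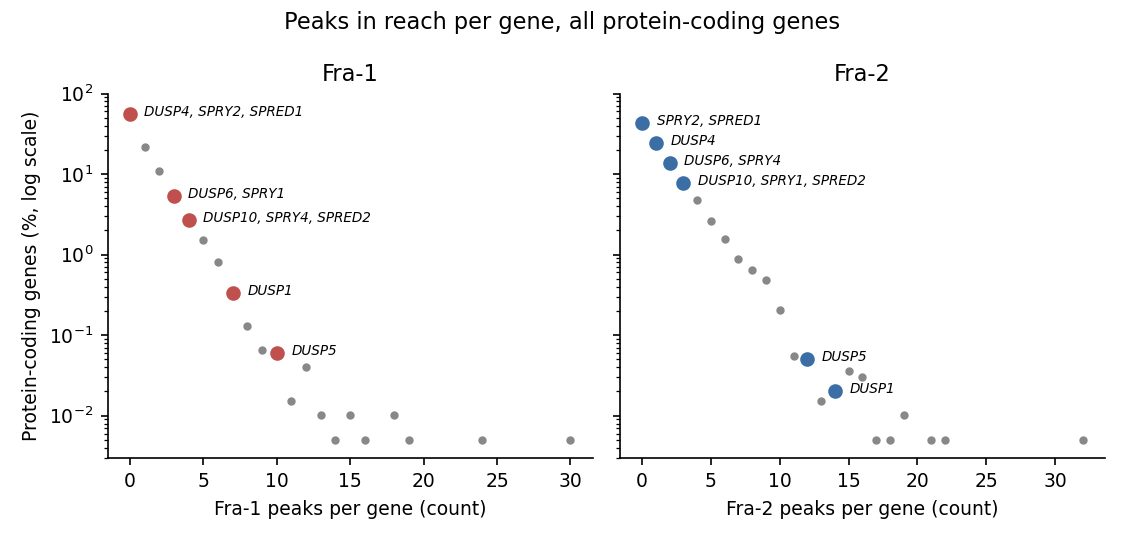
Share of the 19748 protein-coding genes (log scale, grey points) with each number of Fra-1 peaks (left) and Fra-2 peaks (right) in reach, with the 10 genes marked in colour. DUSP5 and DUSP1 lie far to the right, with 10 and 7 Fra-1 peaks and 12 and 14 Fra-2 peaks, and SPRY2 and SPRED1 lie at 0 in both panels.

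By number of Fra-1 peaks the order was DUSP5 with 10 and DUSP1 with 7, then DUSP10, SPRY4 and SPRED2 with 4 each, DUSP6 and SPRY1 with 3 each, and 3 genes with none. By Fra-2 peaks DUSP1 came before DUSP5, with 14 and 12. The window searched was 200 to 204 kb for 9 genes and 298 kb for SPRED2, whose starts spread from 65561907 to 65659771. Per 100 kb of window, DUSP5 had 5 Fra-1 and 6 Fra-2 peaks, DUSP1 had 3.5 and 7, and SPRED2 had 1.34 and 1.01. At least 3 Fra-1 peaks were in reach of 7 of the 10 genes, against 11.0% of all genes. At least 3 Fra-2 peaks were in reach of 5, against 19.2% of all genes. The cut of 3 was not among the planned results. It equals the lowest Fra-1 count of the 7 genes, so it called the same 7 as a cut of 1, which 43.9% of all genes passed. The number of copies of each locus in this aneuploid line and the depth behind the peaks can change how many peaks are called, and their part in these counts was not tested.

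Most peaks of these genes were shared. Of the Fra-1 peaks 74.3% (95% exact binomial interval 56.7 to 87.5) overlapped a Fra-2 peak, against 80.4% in the whole list. Of the Fra-2 peaks 65.0% (48.3 to 79.4) overlapped a Fra-1 peak, against 61.6% in the whole list. The intervals cover counting error only and include the whole-list shares. They also include the 80.4% and 57.5% found among peaks in reach of any protein-coding gene. They treat peaks as independent, which peaks of 1 locus are not. Between gene families, the DUSP genes had 19 shared among 24 Fra-1 peaks and 19 among 32 Fra-2 peaks, while the SPRY and SPRED genes had 7 among 11 and 7 among 8. The 13 Fra-2-only peaks of the DUSP genes included 8 at DUSP1.

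The AP-1 element lay within 100 bp of the centre of 16 Fra-1 peaks (45.7%, 28.8 to 63.4) and 25 Fra-2 peaks (62.5%, 45.8 to 77.3), against 56.8% and 67.5% in the whole lists. In the peaks in reach of any protein-coding gene the shares with an element were 65.0% and 75.2%. The Fra-1 interval ends below the first of these, and the Fra-2 interval includes the second. No peak of the 10 genes was in repeat-like sequence, which held 15.2% and 12.3% of the whole lists but 3.44% and 2.93% of the peaks in reach of any gene. The intervals for the AP-1 element treat peaks as independent, which peaks of 1 locus are not. DUSP1 and DUSP5 supplied 17 of the 35 Fra-1 peaks. Neither difference from the shares in reach of any gene was tested. At shared sites 15 of 26 peaks in each list held the element (57.7%), near the 61.1% and 61.5% of all shared Fra-1 and Fra-2 peaks and below the 70.8% and 71.0% of those in reach of any gene. Without a partner, 1 Fra-1 peak among 9 (11.1%) and 10 Fra-2 peaks among 14 (71.4%) held it, against 39.1% and 77.1% over the whole lists. At least 2 elements were found in 3 Fra-1 and 3 Fra-2 peaks, at DUSP10 and SPRY1 (8.57% and 7.5%, against 13.3% and 12.2% in the whole lists).

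**Figure D4:**
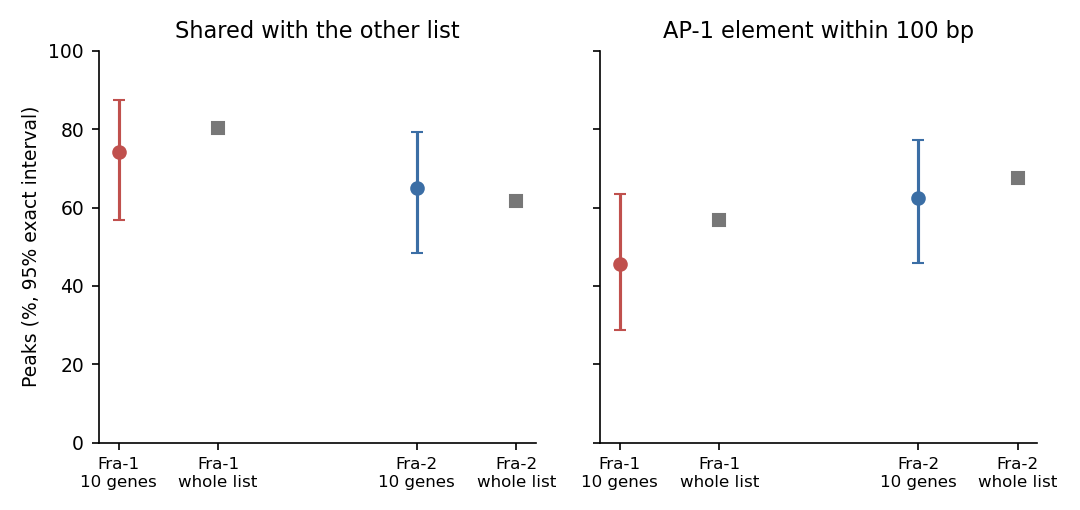
Share of peaks that overlap the other list (left panel) and that hold an AP-1 element within 100 bp of the centre (right panel), for the 10 genes (circles) and the whole list (squares), with 95% exact binomial intervals. The shares at the 10 genes are 74.3% and 65.0% on the left and 45.7% and 62.5% on the right, with intervals wide enough to include the whole-list values. Peaks in reach of any protein-coding gene are not drawn. Their Fra-1 share with an element, 65.0%, lies above the Fra-1 interval of 28.8 to 63.4.

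Other elements were sparse. TEAD elements lay in 3 Fra-1 and 3 Fra-2 peaks, all at DUSP1 and DUSP5 (8.57% and 7.5%, against 15.9% and 13.1% in the whole lists). RUNX elements lay in 3 Fra-1 and 4 Fra-2 peaks, at DUSP5, DUSP6, SPRY1 and SPRY4 (8.57% and 10.0%, against 6.98% and 6.33%). The CArG box, bound by serum response factor, was in none of the 75 peaks and in 0.973% of the whole Fra-1 list and 1.05% of the Fra-2 list. These are matches of letters and not shown to be bound.

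Peak width gave the only measure of extent. At the 10 genes Fra-1 peaks had a median width of 150 bp and Fra-2 peaks one of 225 bp, against 150 bp in both whole lists. Peaks at least 200 bp wide made up 48.6% and 65.0%, against 43.3% and 45.7% in the whole lists. Among peaks in reach of any protein-coding gene these shares were 48.1% and 49.7%, so the Fra-1 share was near that of peaks near genes. The Fra-2 difference was not tested. At the 26 shared sites the Fra-1 peak was the wider at 4, of the same width at 12 and the narrower at 10 (15.4%, 46.2% and 38.5%), a split near the 21.8%, 40.9% and 37.3% of all shared Fra-1 peaks. Its bounds were identical to those of the Fra-2 peak at 10 sites (38.5%, against 37.6% of all shared Fra-1 peaks). Among shared Fra-1 peaks in reach of any protein-coding gene the split was 22.9%, 35.5% and 41.6%, and 31.9% had identical bounds. These differences were not tested. Of these 10 sites 9 were at DUSP genes, which had 19 of the 26 shared sites.

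**Figure D5:**
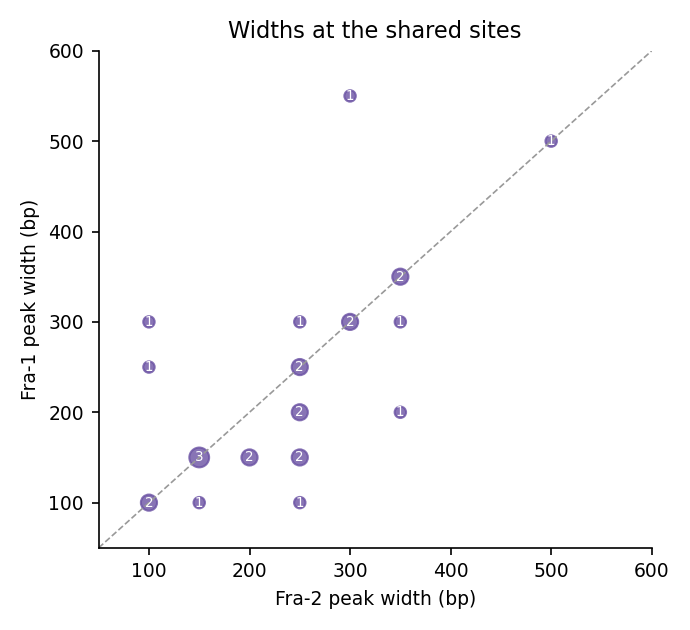
Width of the Fra-1 peak against that of the Fra-2 peak at the 26 shared sites, in bp, with the number of sites printed in each point and equal widths on the dashed line. Equal widths were found at 12 sites, and the point farthest above the line is the DUSP1 site, 550 bp wide for Fra-1 against 300 bp.

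Other genes of the pathway were counted by the same rule. Of 7 further phosphatase, Sprouty and Spred genes, 2 had Fra-1 and 3 had Fra-2 peaks in reach, against 43.9% and 57.1% of all genes. Their medians were 0 Fra-1 and 0 Fra-2 peaks, against 0 and 1 over all genes. DUSP7, which encodes a cytoplasmic phosphatase of ERK, had 3 Fra-1 and 5 Fra-2 peaks, and SPRED3 had 1 and 2. DUSP8, DUSP9, DUSP16 and SPRY3 had none. Of 10 other inhibitors of receptor, RAS and ERK signalling, 9 had Fra-1 and 9 had Fra-2 peaks, against the same 43.9% and 57.1%. Their medians were 1 Fra-1 and 2.5 Fra-2 peaks, against 0 and 1 over all genes. LRIG1, which restrains receptors of the EGFR family, had no peak of either list. ERRFI1, an inhibitor of EGFR, had 7 Fra-1 and 8 Fra-2 peaks, SOCS3, which restrains cytokine receptors, had 4 and 5, and CBLB, a ubiquitin ligase, had 3 and 3. Of 12 genes known to be induced by ERK, 9 had Fra-1 and 10 had Fra-2 peaks, again against 43.9% and 57.1% of all genes. Their medians were 1.5 Fra-1 and 3 Fra-2 peaks. IER3, an early response gene, had 7 and 9, FOSL1 had 6 and 4, and EPHA2, a receptor tyrosine kinase, had 6 and 8. The transcription factor genes EGR1 and FOS had none.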

How the data were processed

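Fra-1 and Fra-2 were precipitated from MDA-MB-231 cells and sequenced beside input DNA. The submitters' processing notes name Bowtie2 and hg19. Which program called the peaks, at which threshold, whether against the input, and how replicates were merged is not given in the sources used here. Per peak, the deposited files list other values than read numbers, namely the start and end of each called peak on a 50 bp grid, with no score. All starts lie 1 above a multiple of 50 and were read as 1-based. Printed positions are those of the files, and sequences stop 1 base before the printed end. No nuclear peak passes a chromosome end in GRCh37. Depth is unknown.

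Peaks were assigned with GENCODE 44 lifted to GRCh37, chromosomes Y and M left out of gene counts. An overlap of 1 bp made a peak shared. Either strand was searched for motifs up to 100 bp from the centre of a peak. Repeat-like means on chromosome Y or M, within 1 Mb of a gap of 1 Mb or more, or with over 20% recurring 10-base words within 1000 bp. Python 3.11.15, pandas 2.3.3, scipy 1.17.1 and pysam 0.24.0 were used. Reach, overlap and motif searches were tested on simulated data. All 10 genes are named, each with its nearest and widest peaks, its peaks within 1 kb of a TSS and its peaks of a single list where it had few. From each pathway list the 3 genes with most Fra-1 peaks are named, and others after their values were seen. The genes and lists were chosen with earlier results of these data known. With 1 list per antibody no test was run. Alternatives were a narrower reach, nearest TSS, wide peaks, first TSS, no repeat-like regions, stricter or looser overlap and other motif windows. A sequence of 1 further peak is not reported here.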

Additional observations from a re-analysis of the deposited data

How the results depend on the processing

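Of 56 values recomputed, 46 stayed within 1.5 times the count or within the interval of the share. Peaks at least 200 bp wide left 17 Fra-1 and 26 Fra-2 peaks, raised the shared part of Fra-1 peaks to 88.2%, and left peaks near 7 and 8 genes. A reach of 10 kb, gene body included, left 8 Fra-1 peaks at 3 genes and 7 Fra-2 peaks at 4 genes, against 16.0% and 22.8% of all genes. Of those 7 Fra-2 peaks, 85.7% held the AP-1 element. Neither this share nor the 88.2% was set against all peaks under the same setting. A reach of 200 kb, added after the data were seen, gave 64 Fra-1 and 67 Fra-2 peaks. Nearest TSS, the first TSS, repeat-like regions, overlap rule and motif window moved none of the values beyond these limits. No paired analysis was possible because there is 1 peak list per antibody. Without scores or read depth, weak and strong peaks cannot be told apart, nor the absence of a peak from low depth.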

Other observations

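Within 200 kb SPRY4 had 12 Fra-1 and 8 Fra-2 peaks, against 4 and 2 within 100 kb, and DUSP4 had 4 and 5, against 0 and 1. SPRY2 had 2 and 2 and SPRED1 0 and 1, while SPRY1 had 3 and 3 at either distance. At 200 kb a Fra-1 peak was in reach for 62.4% of all genes and a Fra-2 peak for 74.6%, so a peak there is common.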
